A study of Homo sapiens with 6 samples.

Results

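The DDX and DHX genes encode RNA helicases, named for the DEAD or DEAH letters in their ATP-binding motor. On these arrays they were the genes whose platform symbol is DDX or DHX followed by a number and at most 1 further letter, with DDX58 and DHX58 left out. The rule found 50 genes, 35 DDX and 15 DHX, among 19777 genes read by probe sets that name 1 gene. Each gene was read by its brightest probe set. Of the 50, 45 passed the filter on low values (mean log2 signal above 5.83), among 11853 genes tested. Another 7 probe sets list a DDX or DHX symbol beside other genes and were left out.

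Messenger RNA was measured on 6 Affymetrix HG-U133 Plus 2.0 arrays, 48 h after lipid transfection of cells labelled HepG2, a line derived from a human liver tumour. On 3 arrays the cells had received an siRNA against RNF43 and on 3 a negative control siRNA, each a single duplex. RNF43, a ubiquitin ligase of the cell membrane, dampens Wnt signalling. In the labels the arrays of a group are biological replicates, without word on whether they came from separate cultures, so the p-values reflect only how far these arrays scatter, which may be technical scatter. The antisense strands, which a duplex loads to find its target, are shown with their seeds (bases 2 to 8) in capitals and U as in RNA, since they define the groups:
RNF43 siRNA antisense: aUAAUAGCuuucuguucugtt
negative control siRNA antisense: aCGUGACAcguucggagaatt

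RNF43 mRNA ran opposite to the group label. Its log2 signals were 8.19, 8.22 and 8.41 on the arrays labelled RNF43 siRNA, against 7.65, 7.79 and 7.45 on the control arrays. RNF43 was thus 1.56-fold higher (0.64 in log2 units, SE 0.14, limma adjusted p = 0.0098). A two-sided exact permutation of the arrays gave p = 0.1, the lowest value possible with 3 against 3. Each direction below is therefore that of the arrays labelled RNF43 siRNA and is not tied to a loss of RNF43 mRNA. The liver markers also went against the cell label. Of 7 liver markers read on the arrays, 6 (ALB, APOA1, TTR, SERPINA1, FGB and TF) lay below the filter, and AFP averaged 6.41 on the arrays labelled RNF43 siRNA and 7.01 on the control arrays. Of 6 fibroblast markers, 4 passed (LUM, DCN, COL1A1 and COL3A1), and of 5 leukocyte markers 0 passed. The fibroblast markers COL1A2 and PDGFRB lay below the filter. COL1A2 averaged 5.37 on the arrays labelled RNF43 siRNA and 4.64 on the control arrays, and PDGFRB 3.24 and 4.84. The summed linear signal of the fibroblast markers was 11398 to 12576 on the arrays labelled RNF43 siRNA and 14193 to 14490 on the control arrays, and that of the liver markers was 203 to 283 on the arrays labelled RNF43 siRNA and 276 to 414 on the control arrays. All 4 tested fibroblast markers had lower means on the arrays labelled RNF43 siRNA, and COL3A1 (2.54-fold, limma adjusted p = 4.94e-05) and DCN (1.46-fold, 0.0046) fell, while LUM and COL1A1 did not pass. No marker of either list was at 0 on any array. What part these markers have in the differences below was not tested. In bulk RNA, fewer cells of a type and less RNA per cell cannot be told apart.

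RNA helicases use ATP to open RNA duplexes or to strip proteins from RNA. DEAD-box enzymes mostly pry apart short duplexes in place, while DEAH-box enzymes move along a strand and often need a G-patch protein to switch them on. Between them they serve each stage of an RNA's life, from transcription and splicing through export, translation and decay, and the largest group assembles ribosomes in the nucleolus.

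Most DDX and DHX genes held their level between the groups to within a small margin, and a few moved clearly. Of the 45 tested, 4 rose (DDX1, DDX52, DHX40 and DHX30) and 4 fell (DDX10, DDX24, DHX37 and DDX50) by limma's test with an adjusted p under 0.05. These 8 are 17.8% of the tested helicases, against 22.6% of all tested genes. By direction the shares were 8.89% higher, against 11.5% of all genes, and 8.89% lower, against 11.1%. For 19 helicases the arrays of one group all lay above those of the other (42.2%), against 38.9% of all genes. The median log2 difference was 0.03, and -0.0028 over all genes. For 34 of the 45 (75.6%) the log2 difference lay within 0.25 of 0, which held for 60.5% of all genes. The helicase probe sets were brighter, with a median log2 signal of 10.82 against 9.61, and these shares were not compared at equal signal. At least 1.5-fold apart were 4 helicases (8.9%), against 9.7% of all genes. The median SD between replicate arrays was 0.11 log2 units for the helicases and 0.13 for all genes. Of 15 DHX genes 2 rose and 1 fell, with a median log2 difference of 0.07, and of 30 tested DDX genes 2 rose and 3 fell, with a median of -0.08. The number of changed helicases was thus near the background of this comparison, and the rest of the account turns on which ones they were.

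**Figure D1:**
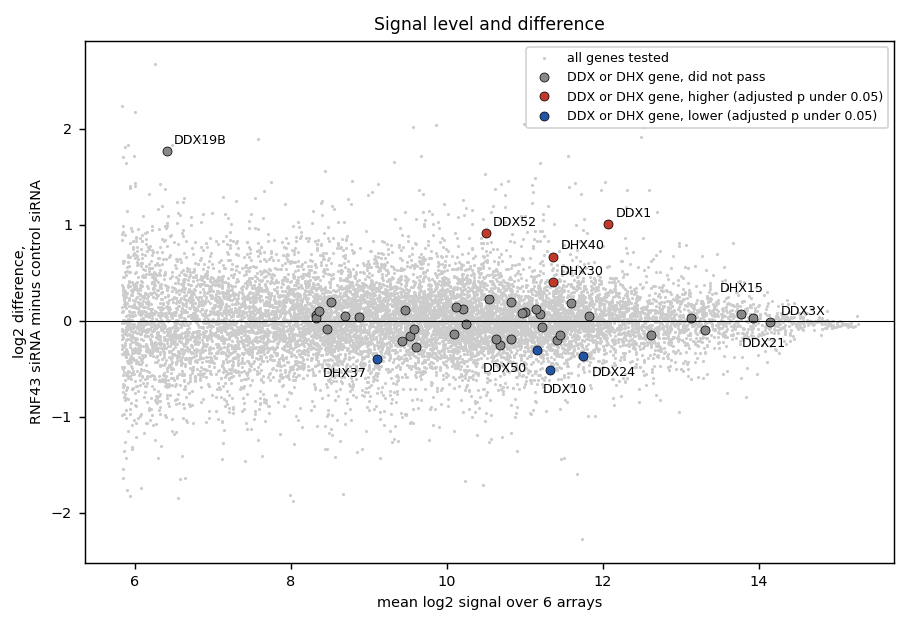
Mean log2 signal over the 6 arrays (x axis) against the log2 difference, RNF43 siRNA minus control siRNA (y axis), for 45 DDX and DHX genes and all 11853 genes tested (small grey points). DDX1, DDX52, DHX40 and DHX30 are marked as higher and DDX10, DDX24, DHX37 and DDX50 as lower, while DDX19B stands at 1.76 without passing; signals of different probe sets are not comparable as levels.

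DDX1 had the largest change among the helicases that passed the test. It unwinds RNA and RNA-DNA hybrids and belongs to the complex that ligates cut tRNAs during tRNA splicing. Log2 signals were 12.67, 12.49 and 12.54 on the arrays labelled RNF43 siRNA, against 11.57, 11.54 and 11.58 on the control arrays. The lowest array labelled RNF43 siRNA was well above the highest control array. DDX1 averaged 12.57 ± 0.09 on the arrays labelled RNF43 siRNA and 11.57 ± 0.02 on the control arrays (SD, n = 3 each), a 2.00-fold rise with a 95% confidence interval of 1.80 to 2.23 (SE 0.07 in log2 units, limma adjusted p = 9.45e-06). By p-value it was number 36 of the 11853 genes. A single probe set read it, so no second reading of the gene was at hand.

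DDX52 also rose. Its yeast counterpart, Rok1, acts in assembly of the small ribosomal subunit. Signals were 10.84, 11.00 and 11.02 on the arrays labelled RNF43 siRNA, against 10.08, 9.62 and 10.44 on the control arrays. The SD was 0.10 on the arrays labelled RNF43 siRNA and 0.41 on the control arrays, and the groups did not overlap. The rise was 1.88-fold, with an interval of 1.45 to 2.42 (log2 difference 0.91, SE 0.17, limma adjusted p = 0.0034). All 3 tested probe sets of DDX52 rose, with log2 differences of 0.91, 0.86 and 0.64.

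DHX40, a DEAH-box protein whose role is little known, had log2 signals of 11.58, 11.73 and 11.78 on the arrays labelled RNF43 siRNA, against 11.01, 10.91 and 11.17 on the control arrays. The groups were clearly apart, and the rise was 1.59-fold (interval 1.39 to 1.81, log2 difference 0.67, SE 0.09, limma adjusted p = 4.56e-04). Both of its probe sets rose, the other one by 0.43 on the log2 scale.

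DHX30, needed for assembly of mitochondrial ribosomes, rose on 1 of its 5 tested probe sets. That probe set, the brightest, read 11.72, 11.48 and 11.47 on the arrays labelled RNF43 siRNA, against 11.19, 11.19 and 11.09 on the control arrays. On it the rise was 1.32-fold (0.40 in log2 units, SE 0.08, limma adjusted p = 0.0066). The other 4 gave log2 differences of -0.03, 0.29, -0.01 and -0.14, while DHX30 averaged over all its probe sets gave -0.03 (adjusted p = 0.927). The rise therefore rests on a single reading of the transcript. DDX28, the other helicase of mitochondrial ribosome assembly among them, had a log2 difference of -0.21 that did not pass (limma adjusted p = 0.192).

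**Figure D2:**
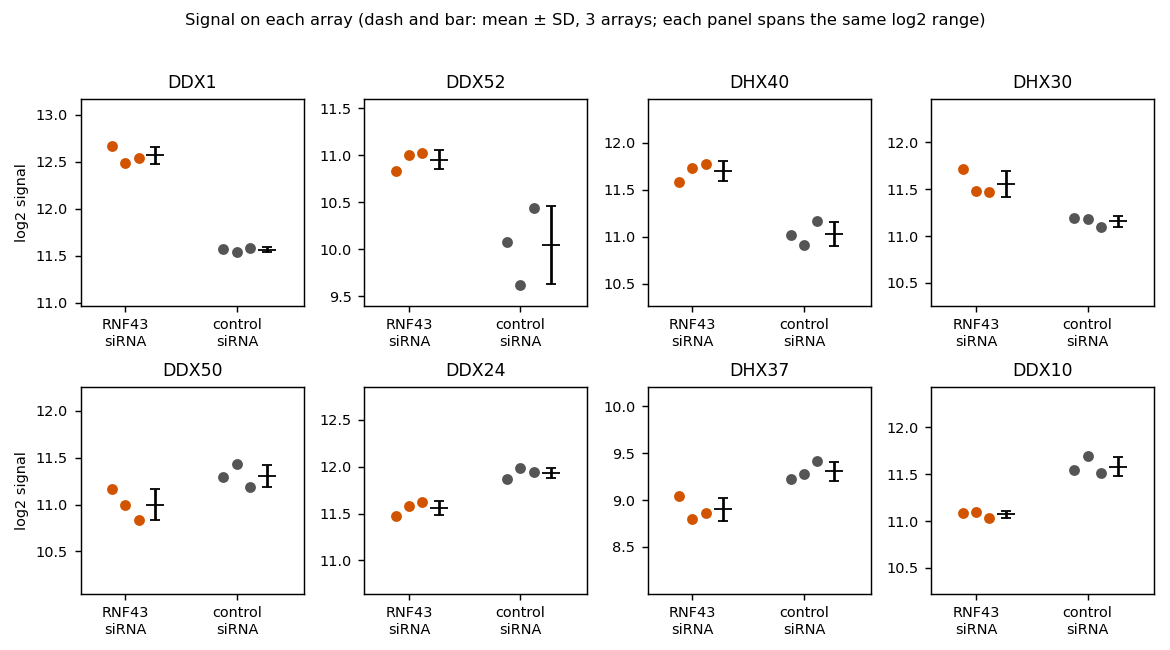
Log2 signal (y axis) on each of the 3 arrays labelled RNF43 siRNA (left, orange) and 3 control siRNA arrays (right, grey) for the 8 DDX and DHX genes that passed the test, with the mean ± SD beside each group; every panel spans the same log2 range. DDX1 has the widest gap for its spread, at 12.57 ± 0.09 on the arrays labelled RNF43 siRNA and 11.57 ± 0.02 on the control arrays, and DDX52 the most scattered control arrays.

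The 4 helicases that fell all act in, or are placed in, the nucleolus, where ribosomes are assembled. Of 14 tested helicases assigned that role, 4 fell and 1 rose (35.7%, against the background of 22.6%), with a median log2 difference of -0.06. The share that fell was 28.6%, against 11.1% of all genes. Roles were chosen with earlier results of these data known, so these shares are a description and not a test of the role. The number that fell among all the helicases was 2 without control siRNA replicate 2 or without RNF43 siRNA replicate 2. DDX10, whose yeast counterpart Dbp4 works on the small subunit precursor, fell most. It read 11.08, 11.10 and 11.03 on the arrays labelled RNF43 siRNA, against 11.54, 11.69 and 11.51 on the control arrays, so that all arrays labelled RNF43 siRNA lay below all control arrays. The log2 difference was -0.51 (SE 0.07, limma adjusted p = 9.36e-04), or 1.42-fold lower. Averaged over both its probe sets, of which the other lay below the filter, DDX10 gave 0.31 (adjusted p = 0.78). DDX24, related to the yeast large subunit factor Mak5, read 11.48, 11.58 and 11.62 on the arrays labelled RNF43 siRNA, against 11.87, 11.98 and 11.94 on the control arrays. Again the groups were apart, and the fall was 1.29-fold (log2 difference -0.37, SE 0.07, limma adjusted p = 0.004). Averaged over its probe sets, DDX24 did not pass (adjusted p = 0.103).

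DHX37 releases the U3 snoRNA from the small subunit precursor. Signals were 9.04, 8.80 and 8.86 on the arrays labelled RNF43 siRNA, against 9.22, 9.28 and 9.41 on the control arrays, a 1.32-fold fall (log2 difference -0.40, SE 0.11, limma adjusted p = 0.0194). The call was lost without control siRNA replicate 2 (adjusted p = 0.0523) or 3 (0.0541) or RNF43 siRNA replicate 2 (0.0804), and its second probe set gave -0.11, which did not pass. DDX50, a nucleolar paralogue of DDX21, read 11.16, 10.99 and 10.84 on the arrays labelled RNF43 siRNA, against 11.29, 11.43 and 11.19 on the control arrays. The highest array labelled RNF43 siRNA lay just below the lowest control array, and the log2 difference of -0.30 passed narrowly (SE 0.10, limma adjusted p = 0.0465). That call was lost in 9 of 16 alternatives, among them those without control siRNA replicate 1 or 2 or RNF43 siRNA replicate 2 or 3 (adjusted p 0.109 to 0.172).

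The other 9 nucleolar helicases did not pass. DDX21, which couples rRNA transcription to processing and lies beside DDX50 in the genome, read 14.00, 13.95 and 13.87 on the arrays labelled RNF43 siRNA, against 13.90, 13.90 and 13.93 on the control arrays. The groups overlapped, and the interval of the log2 difference ran from -0.10 to 0.16. The remaining 8 (DDX27, DDX31, DDX49, DDX51, DDX54, DDX55, DDX56 and DHX33) had log2 differences from -0.20 for DDX27 to 0.20 for DDX54. DDX27 depended on 1 array. It read 11.36, 11.40 and 11.18 on the arrays labelled RNF43 siRNA, against 11.70, 11.76 and 11.06 on the control arrays, and without control siRNA replicate 3 it passed as lower (log2 difference -0.42, limma adjusted p = 0.0059).

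**Figure D3:**
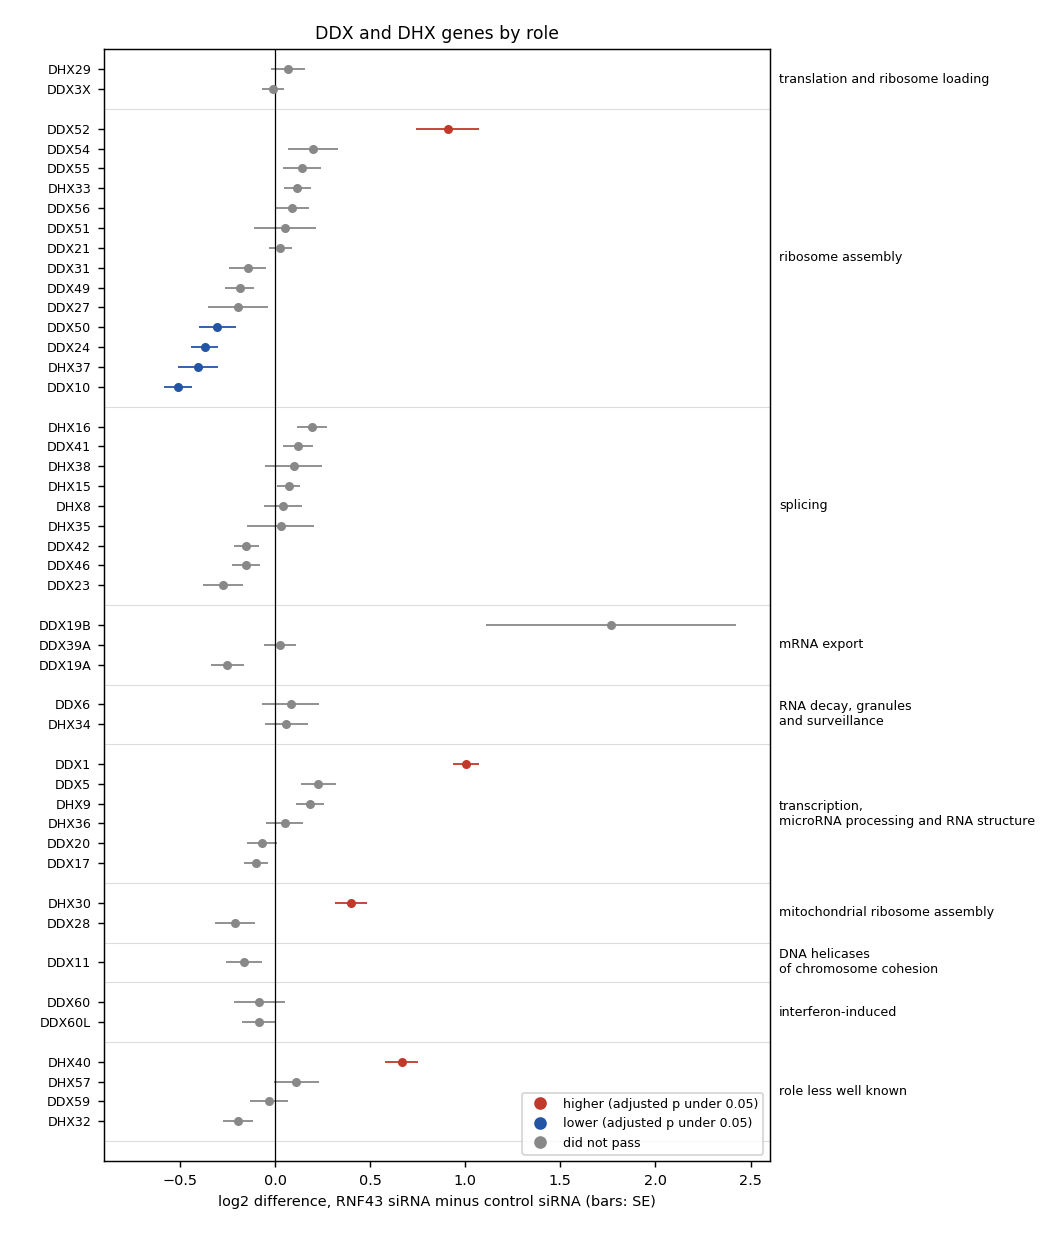
Log2 difference, RNF43 siRNA minus control siRNA, with its SE for each of the 45 tested DDX and DHX genes, grouped by role down the page. The blue points that fell are all in the ribosome assembly group (DDX10, DHX37, DDX24 and DDX50), and the 9 splicing helicases lie between -0.27 and 0.19 without passing.

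None of 9 splicing helicases passed an adjusted p of 0.05 in limma's test of the brightest probe sets (0%, against 22.6% of all genes). Their median log2 difference was 0.04. They included DHX15, which takes spent spliceosomes apart and also serves the ribosome, at 13.84, 13.75 and 13.84 on the arrays labelled RNF43 siRNA, against 13.74, 13.70 and 13.78 on the control arrays. Its log2 difference of 0.07 had an interval of -0.06 to 0.20. DHX16 (0.19) and DDX41 (0.12), both of the catalytic stages, and DDX23 (-0.27) and DDX42 (-0.15), of spliceosome formation, had groups that did not overlap yet did not pass (limma adjusted p 0.0866 to 0.307). DHX8, DHX35 and DHX38 had log2 differences of 0.04, 0.03 and 0.10. In a limma fit with the replicate number as a block, DDX23, DDX46 and DHX16 passed (adjusted p = 0.0389, 0.0381 and 0.0373). DDX46, which helps the U2 particle bind the branch site, differed between its probe sets. Its brightest, with a name ending in _s_at, gave -0.15 (limma adjusted p = 0.174), while the other rose by 0.50 (limma over all probe sets, adjusted p = 0.015), at 10.58, 10.69 and 10.74 on the arrays labelled RNF43 siRNA, against 10.08, 10.01 and 10.41 on the control arrays.

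Transport and translation helicases gave no passing call in the main fit (0 of 3 and 0 of 2, against 22.6% of all genes). With the replicate number as a block, DDX19A and DDX19B passed (limma adjusted p = 0.0153 and 0.0112). DDX19A and DDX19B are near-identical enzymes that remodel mRNA at the nuclear pore. DDX19A read 10.63, 10.43 and 10.62 on the arrays labelled RNF43 siRNA, against 10.91, 10.82 and 10.71 on the control arrays, and the difference of -0.25 in log2 units (SE 0.09) did not pass (limma adjusted p = 0.0624). For DDX19B the arrays labelled RNF43 siRNA read 7.12, 7.50 and 7.24, against 7.02, 5.90 and 3.65 on the control arrays. The control arrays were spread over more than 3 log2 units and averaged below the filter, so the log2 difference of 1.76 (SE 0.66) had an interval of 0.31 to 3.22 and did not pass (limma adjusted p = 0.0818). DDX19B passed without control siRNA replicate 1 (log2 difference 2.51, adjusted p = 0.015) and was 0.83 without control siRNA replicate 3. With 64 added to the linear signal it was 0.85 and passed (adjusted p = 0.0454), so its size and its call depended on single arrays and on the treatment of low signals. A probe set that lists both genes was not used for either. DDX39A, a helicase of mRNA export, read 13.12, 13.08 and 13.21 on the arrays labelled RNF43 siRNA, against 13.04, 13.01 and 13.29 on the control arrays, an overlap with a log2 difference of 0.03.

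DDX3X, which opens structured mRNA leaders for translation, read 14.18, 14.15 and 14.07 on the arrays labelled RNF43 siRNA, against 14.17, 14.15 and 14.12 on the control arrays. The groups overlapped, with an interval of -0.14 to 0.11 around a log2 difference of -0.01 that became 0.02 with quantile normalization or median centring. Its 4 tested probe sets gave log2 differences from -0.12 to 0.05. The Y-linked copy DDX3Y lay below the filter. DHX29, which helps the small subunit scan such leaders, had a log2 difference of 0.07 (interval -0.13 to 0.26).

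DDX5 and DDX17 are close paralogues that act as transcription cofactors and assist microRNA processing. The tested DDX5 probe set read 10.73, 10.73 and 10.50 on the arrays labelled RNF43 siRNA, against 10.54, 10.36 and 10.37 on the control arrays. One array crossed between the groups, and the log2 difference of 0.23 (SE 0.09) did not pass (limma adjusted p = 0.105), although it did without RNF43 siRNA replicate 3 (0.0364). DDX17 read 13.31, 13.32 and 13.17 on the arrays labelled RNF43 siRNA, against 13.35, 13.36 and 13.38 on the control arrays, a small separation with a log2 difference of -0.10 (SE 0.06, adjusted p = 0.301). Its 4 other probe sets gave log2 differences of -0.63, -0.76, -0.40 and -0.50, all below 0, and the first of them fell (limma over all probe sets, adjusted p = 0.0124). That one, an _x_at probe set, which may cross-hybridise with similar transcripts, read 8.09, 8.11 and 8.28 on the arrays labelled RNF43 siRNA, against 8.83, 8.96 and 8.58 on the control arrays.

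DHX9, a helicase of transcription and of RNA-DNA hybrids, read 11.66, 11.70 and 11.69 on the arrays labelled RNF43 siRNA, against 11.50, 11.60 and 11.41 on the control arrays. All arrays labelled RNF43 siRNA were above all control arrays, with a log2 difference of 0.18 that did not pass (SE 0.07, limma adjusted p = 0.097). DHX36, which unfolds G-quadruplexes, gave 0.05 on its brightest probe set, while 1 of its 3 others rose by 0.28 (limma over all probe sets, adjusted p = 0.0244). DDX20, of the SMN complex that loads spliceosomal particles, gave -0.07. DDX20 gave 0.28 with limma adjusted p = 0.0476 once probe sets ending in _x_at and _s_at were set aside, so its direction depended on the probe set. In limma over all probe sets that second probe set did not pass (adjusted p = 0.0638).

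The remaining helicases stood close to 0 or below the filter. DDX6, which represses mRNA and promotes its decapping in P-bodies, and DHX34, of nonsense-mediated decay, had log2 differences of 0.08 and 0.06. DDX11, a DNA helicase of sister chromatid cohesion, gave -0.16. DDX60 and DDX60L, an adjacent pair induced by interferon, had nearly equal log2 differences of -0.08 each. DDX60 read 8.63, 8.25 and 8.38 on the arrays labelled RNF43 siRNA, against 8.57, 8.35 and 8.59 on the control arrays. DDX60L read 9.62, 9.55 and 9.44 on the arrays labelled RNF43 siRNA, against 9.63, 9.61 and 9.62 on the control arrays. Neither pair of groups was fully apart. DHX32, DHX57 and DDX59, whose cellular roles are less well known, had log2 differences of -0.20, 0.11 and -0.03. Apart from DDX3Y, the genes below the filter were the germ line helicases DDX4, DDX25, DDX43 and DDX53, with mean log2 signals of 1.46 to 4.20 over the 6 arrays.

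By probe set, 96 helicase probe sets passed the filter, and 9 rose (9.38%, against 9.01% of 22660 probe sets) and 4 fell (4.17%, against 8.65%). Of 32 helicases with at least 2 tested probe sets, 26 had the same call on each and 6 did not. Among the 26, only DDX52 and DHX40 were called, and the rest matched in that no probe set passed. The 6 were DDX17, DDX24, DDX46, DHX30, DHX36 and DHX37, each called on 1 probe set only. This count was not made over all genes. In 0 of the 32 were probe sets called in opposite directions.

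**Figure D4:**
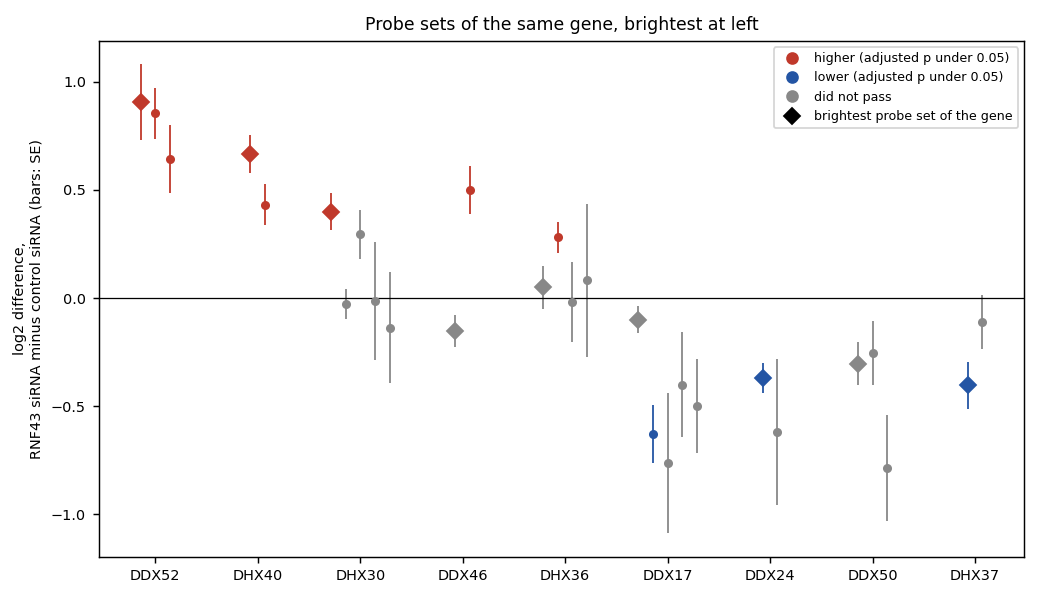
Log2 difference, RNF43 siRNA minus control siRNA, with its SE for each tested probe set of 9 helicases in limma's fit over all probe sets, the brightest of each gene as a diamond at left. All 3 DDX52 and both DHX40 probe sets rose, DHX30 rose on 1 of 5, DDX17 fell on 1 of 5, and no DDX50 probe set passed in this fit.

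The genome neighbours of the 8 changed helicases were counted in the same fit. Among the 32 nearest tested protein-coding genes, 2 on each side in RefSeq gene order, 8 (25%) changed, against 22.6% of all genes, 4 in the direction of their helicase and 4 against it. Next to DDX1 on chromosome 2, NBAS had a log2 difference of -0.18 that did not pass, and SMC6, on the other side, fell by 0.31 (limma adjusted p = 0.0279). DHX40 and DDX52 both lie on chromosome 17, as do DDX5, DDX42, DHX8 and DHX33, which did not pass. These neighbours were named after their values were seen.

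The promoters of DHX30 and DHX40, which rose, and of DHX37, which fell, are left out here. Of the motifs marked below, DHX30 has both, while DHX40 and DHX37 have neither. The promoters of DDX1, whose rise was the largest that passed, and of the other 3 helicases that fell are shown. They cover 250 bases before the gene start in RefSeq GRCh38.p14, 5′ to 3′ along the gene's strand, with the CCAAT box (CCAAT or its reverse ATTGG) and the ETS core (CCGGAAG or its reverse) in capitals.
DDX1 (chr2:15591618-15591867, plus strand): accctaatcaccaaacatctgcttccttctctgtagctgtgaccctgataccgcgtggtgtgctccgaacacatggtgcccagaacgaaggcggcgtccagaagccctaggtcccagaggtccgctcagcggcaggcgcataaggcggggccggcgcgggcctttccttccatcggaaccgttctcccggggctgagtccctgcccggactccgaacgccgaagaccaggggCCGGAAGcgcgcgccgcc
DDX10 (chr11:108664819-108665068, plus strand): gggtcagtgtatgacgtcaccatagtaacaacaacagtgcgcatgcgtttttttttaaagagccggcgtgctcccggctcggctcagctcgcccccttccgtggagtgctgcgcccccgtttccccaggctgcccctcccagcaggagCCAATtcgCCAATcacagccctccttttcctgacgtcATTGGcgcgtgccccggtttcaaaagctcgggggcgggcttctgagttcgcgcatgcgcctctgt
DDX24 (chr14:94081203-94081452, minus strand): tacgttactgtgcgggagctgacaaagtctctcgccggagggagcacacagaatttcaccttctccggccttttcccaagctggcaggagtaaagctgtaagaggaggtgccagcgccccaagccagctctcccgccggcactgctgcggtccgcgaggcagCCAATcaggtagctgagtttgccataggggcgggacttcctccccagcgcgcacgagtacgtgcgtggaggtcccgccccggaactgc
DDX50 (chr10:68901065-68901314, plus strand): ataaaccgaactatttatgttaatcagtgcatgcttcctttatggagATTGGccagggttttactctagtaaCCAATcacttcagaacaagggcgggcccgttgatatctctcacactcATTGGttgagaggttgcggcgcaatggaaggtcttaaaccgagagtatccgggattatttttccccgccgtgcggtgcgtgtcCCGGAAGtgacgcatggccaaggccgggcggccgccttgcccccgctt

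Promoters were found for 42 of the 45 tested helicases, and DDX52 was not among them. A CCAAT box stood in 19 of the 42 (45.2%), against 33.0% of 27305 promoters and 35.4% of those of tested genes. It was in 3 of the 4 promoters of helicases that fell, with 3 matches in DDX10, 1 in DDX24, 3 in DDX50 and 0 in DHX37. Of the 3 promoters found for helicases that rose, 1 had it (DHX30). The ETS core stood in 14 of the 42 (33.3%), against 8.8% of all promoters and 16.3% of those of tested genes. It was in 2 of the 3 that rose (DDX1 and DHX30) and in 1 of the 4 that fell (DDX50). The E-box CACGTG was in 7 (16.7%), against 6.5% and 9.0%. It was in none of the 4 that fell and in 1 of the 3 that rose (DHX40). TATAAA was in 1 (2.4%), against 11.1% and 5.5%. Both strands were searched, and these matches describe letters only.

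Other RNA helicases, and genes of classes that work with DDX or DHX helicases, were counted from lists, called partner lists below. Of 15 tested RNA helicases with other names, 3 rose and 1 fell (26.7%, against the background of 22.6%, median log2 difference 0.03). DICER1, which cuts microRNA precursors and carries a helicase domain, rose 1.57-fold (0.65 ± 0.09 in log2 units, SE, with a limma adjusted p of 8.70e-04) on its brightest probe set, while the mean over its probe sets did not pass (0.409). DICER1 read 10.61, 10.85 and 10.53 on the arrays labelled RNF43 siRNA, against 10.03, 10.02 and 9.99 on the control arrays. TDRD9, known from the mouse germ line piRNA pathway, rose 1.39-fold. ZNFX1, an RNA helicase of antiviral defence, fell 1.33-fold.

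Of 21 tested G-patch proteins, a class that includes activators of DEAH-box helicases, 1 rose and 2 fell (14.3%, against 22.6% of all genes, median log2 difference 0.01). GPATCH11 rose 1.78-fold on its brightest probe set, but at 0.32 in log2 units, averaged over its probe sets, it did not pass (limma adjusted p = 0.214). RBM10, a splicing regulator, and GPATCH3 fell 1.45-fold and 1.38-fold. Among 14 tested partners of DDX39B and DDX19 in mRNA export, 2 rose and 1 fell (21.4%, against the same 22.6%, median log2 difference 0.00). GLE1, which activates DDX19 at the nuclear pore, fell to 10.94, 11.03 and 10.91 on the arrays labelled RNF43 siRNA, against 11.41, 11.56 and 11.67 on the control arrays, with the groups well apart. Its log2 difference was -0.58 (SE 0.08, limma adjusted p = 7.48e-04), and -0.30 when its probe sets were averaged, which did not pass (0.127). The export adaptors FYTTD1 and CHTOP rose 1.26-fold and 1.20-fold.

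Of 12 tested decay partners of DDX6, 0 rose and 1 fell (8.33%, against 22.6% of all genes, median log2 difference 0.02) by limma's test. That was DCP1B, a decapping cofactor, which fell 1.45-fold. Of 18 tested spliceosome partners, 0 rose and 2 fell by the same test (11.1%, against the same 22.6%, median log2 difference -0.09). Log2 differences were below 0 for 15 of the 18, and for 5983 of the 11853 genes tested. SF3B2, of the U2 particle that DDX46 acts on, fell 1.40-fold, and CDC5L, of the catalytic spliceosome, 1.23-fold. The calls of GPATCH3, CHTOP and CDC5L were lost in 9 of 16, 7 of 15 and 8 of 15 alternatives, among them the fits without RNF43 siRNA replicate 2 (limma adjusted p = 0.130, 0.103 and 0.148).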

How the data were processed

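Total RNA was labelled and hybridised to 6 arrays, 3 per group, with groups and replicate numbers taken from the titles. The values deposited by the authors were made with MAS5, per the submitters' processing notes. The deposited values were taken as log2 signals from their range, since the labels do not state a log base. On that reading the trimmed linear means were 497.03 to 497.23 on the 6 arrays, so a common scaling had been applied. Since MAS5 removes an estimate of stray binding, dim probe sets are noisy, and 391 to 628 values on an array stood at a floor of 0. Median log2 signals were 5.89 to 6.02, and the number of arrays limits the precision.

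The values were used as given. Of 54613 probe sets, 41091 named 1 gene, 1801 several and 11721 were unnamed here. Symbols were updated to RefSeq GRCh38.p14. Genes were read by their brightest probe set and tested if it lay in the upper 50% of probe sets. The test was that of limma 3.58.1 (R 4.3.3), two-sided, its prior variance following the signal, and p-values were adjusted by Benjamini-Hochberg over all 11853 genes, with a threshold of 0.05. A second fit covered 22660 probe sets. The steps were tested on simulated data. The members, roles and partner lists were chosen with earlier results of these data known. All tested members could be named, and of each partner list up to 2 genes per direction with the smallest p. Alternatives were run for the scaling of arrays, a constant added to the signal, the filter, the variance model, choice of probe set, a replicate block, the symbols that define the members and leaving out each array. Deviations of samples that share replicate number 1, 2 or 3 correlated with r = 0.16, 0.08 and 0.27, all above 0. Between samples with different replicate numbers r ran from -0.21 to 0.09. The labels do not tie the numbers to shared cultures, and the main fit did not use them as pairs. Whether samples with the same number were handled together was not tested. The fit with the number as a block is given below as an alternative.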

Additional observations from a re-analysis of the deposited data

How the results depend on the processing

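The rises of DDX1, DDX52 and DHX40 kept their direction and passed in each alternative run for them. Counts of calls moved with several choices. With a gene's probe sets averaged, those below the filter included, 777 genes were higher and 760 lower, against 1364 and 1320. In that fit 1 helicase was lower, against 4. Of the genes on the partner lists, other RNA helicases included, 2 were higher and 4 lower, against 6 and 7. Without probe sets ending in _x_at or _s_at, 2 helicases were lower, in a fit of 9200 genes. With no intensity trend, 4 helicase probe sets were higher, against 9. The shares of all genes or probe sets called in those last fits are not given here.

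With the replicate number as a block, which the labels do not tie to shared cultures, 8 helicases were higher and 9 lower. In that fit 15 helicase probe sets were higher and 9 lower, and 11 genes on the partner lists were higher and 16 lower. Counts over all genes also moved between alternatives, to at most 1979 higher and 1929 lower in any of them, against 1364 and 1320. The share of all genes called with the block is not given here. The helicase counts with the block therefore cannot be set against the 22.6% of the main fit.

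Leaving out 1 array at a time gave 875 to 1408 genes higher, 864 to 1251 lower, 2 to 5 helicases lower, 5 to 10 helicase probe sets higher and 2 to 9 lower. The lowest counts over all genes came without RNF43 siRNA replicate 2. With 1 array left out, log2 differences spanned 0 for DDX21 (-0.0018 to 0.061), DDX39A (-0.026 to 0.12), DDX3X (-0.035 to 0.018), DDX51 (-0.10 to 0.19), DDX59 (-0.11 to 0.046), DDX6 (-0.11 to 0.20), DDX60 (-0.19 to 0.0039), DHX35 (-0.17 to 0.18), DHX36 (-0.0095 to 0.16) and DHX38 (-0.028 to 0.22), none of which passed with all arrays.

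With the mean of probe sets the sign turned for DDX10 (0.31), DDX20 (0.11), DDX31 (0.20), DDX42 (0.65), DDX46 (0.17), DDX51 (-0.28), DHX29 (-0.11), DHX30 (-0.027), DHX9 (-0.039) and CDC5L (0.10). That mean takes in probe sets below the filter. DDX10 had 1 of 2 probe sets above the filter, at -0.51, and DDX42 had 2 of 3, at -0.15 and -0.12. For these 2 genes the turn therefore came from a probe set below the filter. Without _x_at and _s_at probe sets it turned for DDX20 (0.28), DDX46 (0.50) and DHX30 (-0.029). Quantile normalization turned DDX3X (0.016), and median centring DDX3X (0.021) and DDX59 (0.0020). Why probe sets of a gene, or scalings, differ was not tested. Dim probe sets limit what can be said of DDX19B and of the helicases under the filter.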

Other observations

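Among the probe sets left out because they name several genes, some read DDX47 and DDX39B, which no probe set naming 1 gene covered, and another read DDX5. The one listing DDX47, a helicase of ribosome assembly, together with APOLD1 had log2 signals of 13.16, 13.02 and 13.17 on the arrays labelled RNF43 siRNA, against 12.87, 12.85 and 12.92 on the control arrays. One listing DDX39B, a helicase of splicing and mRNA export, with a small nucleolar RNA and a readthrough transcript read 11.51, 11.62 and 11.63 on the arrays labelled RNF43 siRNA, against 11.29, 11.21 and 11.39 on the control arrays. A probe set listing DDX5 with 2 microRNAs read 14.35, 14.36 and 14.42 on the arrays labelled RNF43 siRNA, against 14.22, 14.28 and 14.32 on the control arrays. In each of these 3, all arrays labelled RNF43 siRNA were above all control arrays. Groups without overlap, in either direction, were seen for 38.9% of all tested genes. A second probe set for DDX39B read 9.11, 8.50 and 8.53 on the arrays labelled RNF43 siRNA, against 8.82, 8.86 and 7.57 on the control arrays, and there the groups overlapped. They also overlapped in the probe sets listing DDX19A with DDX19B, DDX11 with DDX12P and DDX27 with SS18. These probe sets were named after their values were seen and were not tested, and which of the listed genes gave the signal cannot be told apart.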
